A study of Mus musculus with 60 samples.

Results

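The 36 genes described here encode secreted ligands, co-receptor, antagonists, inhibitory SMADs and immediate targets of BMP, Nodal and TGF-beta signalling. Their rule uses gene names and no measured value, although earlier results of these data were known when it was set, and they are 36 of the 21866 protein-coding genes with an annotated start site. The mark measured was H3K27me3, mapped by CUT&RUN, in which an antibody-tethered nuclease releases the chromatin that carries the mark for sequencing. A promoter was defined as 1.5 kb upstream and downstream of any of a gene's start sites, and it was called in a library when a deposited peak overlapped it by at least 1 bp. The 30 H3K27me3 libraries came from male mouse embryonic stem cells (ESCs) taken through a protocol meant to yield anterior neural progenitors, each with an IgG library as its background. Knockout (KO) cells lacked Tet1 and were lines KO15 and KO25 at days 0 and 2, and KO15 and KO1 from day 3. Mutant (MUT) cells kept a TET1 protein without catalytic activity, and were lines CM59 and CM40 at days 0 and 2, and CM59 and CM69 from day 3. Wild-type (WT) cells were lines WT70 and WT72 throughout, and the labels do not say whether these are mock-transfected clones of the line from which MUT was made or separate lines. The description of the KO25 samples points to WT70 peaks, whereas their title, line and genotype say KO25, and peaks deposited under the name KO25 were used. Every genotype was sampled at days 0, 2, 3 and 5 and at day 5 after 5 µM of the Wnt pathway inhibitor XAV939 from day 2 (day 5 XAV), with 2 lines per group. The MUT lines were single clones edited with Cas9, all lines carried the strain label B6129S6F1 with the Tet1 allele name tm1Koh, WT included, and bFGF was present until the medium change of day 3. Peak intervals give no reading of the Tet1 lesion, so the genotypes rest on the labels.

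Ligands of this family bind paired serine/threonine kinase receptors. Nodal, activins and TGF-betas act through SMAD2 and SMAD3, and BMPs and most GDFs through SMAD1, SMAD5 and SMAD9, each partnered by SMAD4 in the nucleus. In the gastrulating embryo Nodal and BMP signals pattern the posterior epiblast, while antagonists such as LEFTY1, CER1, chordin and noggin shield the prospective forebrain. H3K27me3 is deposited by Polycomb repressive complex 2, mostly over CpG-rich promoters of developmental genes, and marks promoters that are silent or held at low output. A change in a call over bulk chromatin cannot tell more cells with the mark from more mark per cell.

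Libraries held between 704 and 3466 peaks, with median widths of 3676 to 9155 bp, and 70.7 to 85.7% of a library's peaks touched a promoter. Day 2 libraries had median widths of 5975 to 9155 bp. CM59 at day 5 XAV stood apart with 704 peaks of a median 7715 bp. None of 10 housekeeping promoters was called in any library. Of 8 pluripotency markers 2 to 5 were called per library. Among them Esrrb and Tbx3 were called in every library, and Nanog, Zfp42 and Dppa3 in none. Of 8 primitive streak and mesoderm markers 5 to 8 were called per library, of 8 anterior neural markers 5 to 7, and of 6 fibroblast feeder markers 2 to 5. Their part in the results was not tested.

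Members of these pathways fell into constant, changing and unmarked promoters. Bmp6, Gdf6 and Gdf7 were called in all 30 libraries, 26 members in some libraries, and 7 in none, namely Gdf3, Cer1, Bmp5, Bmp10, Gdf5, Tgfb3 and Bambi. The share called in every library was 8.33% of members, against 2.01% of all protein-coding promoters, and the share never called was 19.4% of members, against 83.6% of all promoters. The 29 members called at all were each called in at least 2 libraries, the minimum for a test. By role, BMP ligands were called in 48.1, 55.6, 59.3, 53.7 and 51.9% of gene and library pairs at days 0, 2, 3, 5 and 5 XAV. The Id genes, direct BMP targets that restrain neural transcription factors, were called in 33.3, 83.3, 58.3, 8.33 and 12.5% of pairs at the same stages. The rise from day 0 to day 2 lay in Id1 and Id2, while Id3 was called in 6 of 6 and Id4 in 2 of 6 libraries at both days. The secreted antagonists with the decoy receptor Bambi were called in 70, 63.3, 50, 36.7 and 43.3% of pairs. The role with fewest calls before XAV was the Nodal ligands and co-receptor, at 0 to 5.56% of pairs up to day 5 and 50% at day 5 XAV. Of the 3179 protein-coding promoters called in at least 2 libraries, a library had 39.1 to 81.3% called at day 0 and 39.7 to 60.2% at day 2. The ranges were 23.7 to 48.6% at day 3, 31.5 to 70.9% at day 5 and 21.3 to 66.4% at day 5 XAV. Roles were not tested against these.

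**Figure D1:**
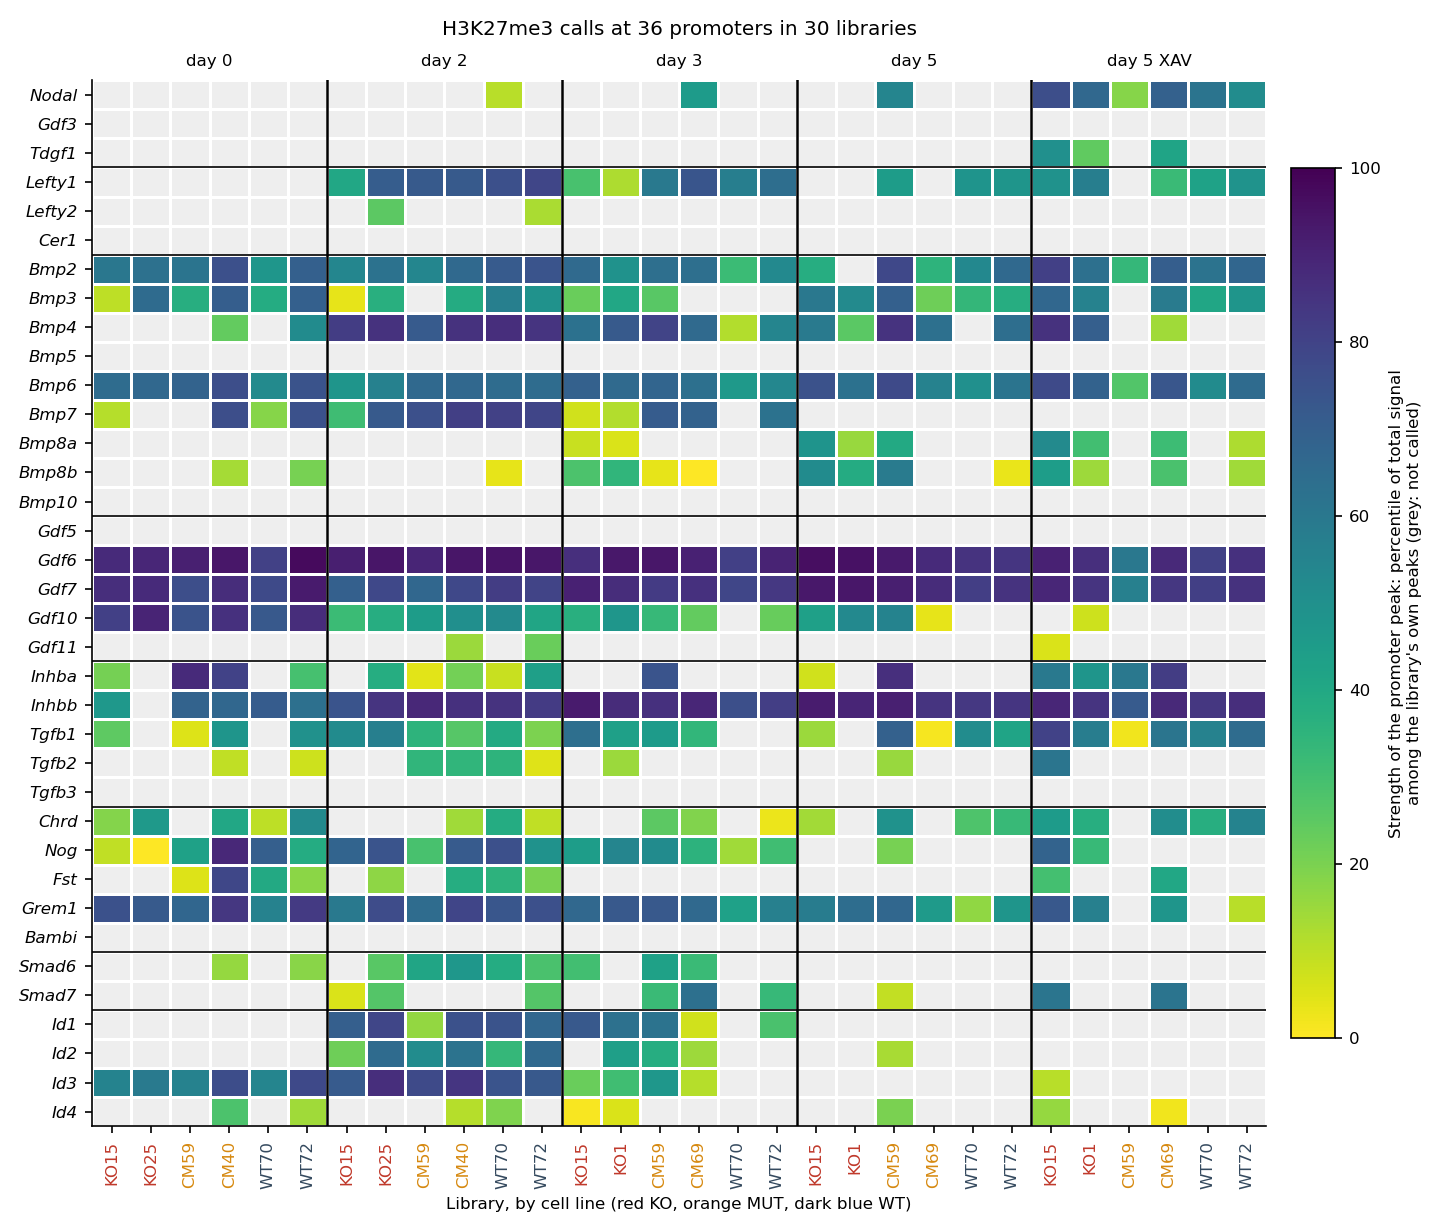
Rows are the 36 members by role and columns the 30 libraries by time point and line; colour gives the percentile of the promoter peak's total signal among that library's own peaks, and grey means not called. Gdf6, Gdf7 and Bmp6 are filled across all 30 columns, Id1 is filled in 6 of 6 day 2 columns and no day 0 column, and Nodal is filled in 6 of 6 day 5 XAV columns.

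The largest number of members was called at day 2. Between 10 and 20 of the 36 were called per library at day 0, 17 to 24 at day 2, 9 to 21 at day 3, 10 to 21 at day 5 and 8 to 23 at day 5 XAV. The member share was 17.1 percentage points higher at day 2 than at day 0, averaged within genotypes, beside a spread between lines of 9.98 points. It was 11.1 points lower at day 3 than at day 2 (difference -11.1, spread 6.61) and 12 points lower at day 5 than at day 3 (difference -12, spread 10.4). Over the 3179 promoters called in at least 2 libraries the same differences were -8.09 points for day 2 against day 0, -14.3 for day 3 against day 2 and 11.5 for day 5 against day 3. The members' drop at day 3 was therefore near that of all promoters, while at days 2 and 5 members and all promoters differed in direction, which was not tested. Among all promoters tested, 23% had more and 42.9% had fewer called libraries at day 2 than at day 0. Of the 26 members tested, 13 had more and 3 had fewer.

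**Figure D2:**
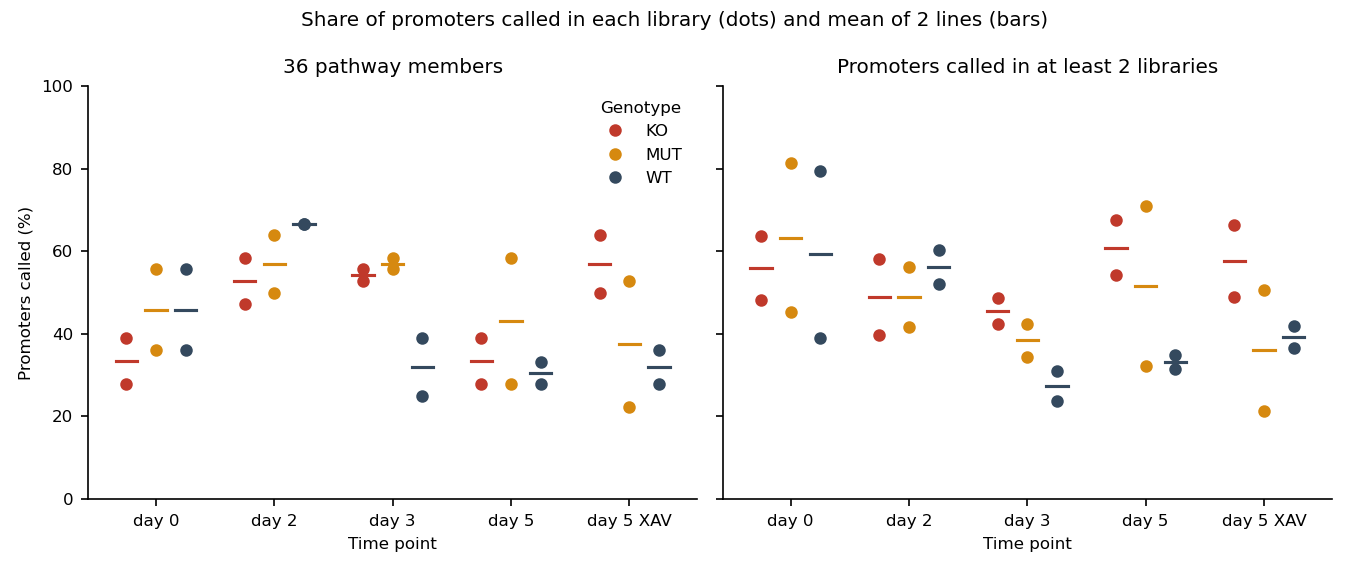
Percentage of promoters called in each library (dots) with the mean of the 2 lines (bars), by time point and genotype, for the 36 members on the left and for promoters called in at least 2 libraries on the right. At day 3 the KO and MUT dots of the members sit above both WT dots, where WT libraries also held the fewest peaks of that time point.

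Id1, Id2 and Lefty1 were called at day 2 and not at day 0. Id1 was called in all 6 day 2 libraries and in no day 0 library. At day 2 its peak stood at the 70 and 79 percentile of the library's own peaks by total signal in KO15 and KO25, at 16.1 and 75.2 in CM59 and CM40, and at 74.5 and 67 in WT70 and WT72. Only CM59 was low, with a peak of 1487 bp where the other 5 spanned 7461 to 9737 bp. Id2 was likewise called in 6 of 6 day 2 libraries and 0 of 6 day 0 libraries, at percentiles of 22.1 to 66.4. Lefty1, a secreted Nodal inhibitor, was the third member to separate the time points fully, at percentiles of 40.5 to 79.1 at day 2. For each of these genes the difference was 100 points (two-sided exact conditional test stratified by genotype, p = 0.00926, adjusted p = 0.318, 12 libraries), and 0.00926 is the smallest p the design allows. Over all promoters tested, 39 of 2779 (1.4%) were called in every day 2 library and no day 0 library.

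Bmp4, which encodes a ligand of posterior epiblast and extra-embryonic tissue, was called in 6 of 6 day 2 libraries and in 2 of 6 day 0 libraries, CM40 and WT72 (exact p = 0.0833, adjusted p = 0.631). Those day 0 libraries held 3466 and 3450 peaks, the most of all 30. Its day 2 peaks were long, at 15620 and 15459 bp in KO15 and KO25, 6653 and 16163 bp in CM59 and CM40, and 15678 and 16503 bp in WT70 and WT72. At day 3 the median width was 5312 bp and at day 5 it was 7380 bp. In total 4 of 26 members had at least 4 more called libraries at day 2 than at day 0, beside 5.07% of all promoters tested, and 0 had at least 4 fewer, beside 8.56%. No promoter passed an adjusted p of 0.05 by the exact test (0%), and 194 had an unadjusted p under 0.05, 3 of them members.

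Id3 was already called in 6 of 6 libraries at day 0, yet its peak was weaker there. Its signal percentile among the 440 regions called in all 30 libraries had a median of 36.8 at day 2 (range 17.5 to 51.4) and of 11.6 at day 0 (8.41 to 15.2), so the time points did not overlap. Inhbb, the gene for an activin and inhibin subunit, had percentiles of 40.5 to 60.2 at day 2 and of 2.73 to 31.4 in the 5 day 0 libraries with a call. The GDF ligand gene Gdf10 went the other way, at 0.909 to 5.23 at day 2 and 25.7 to 46.4 at day 0. Other members called in every library of both days, namely Bmp2, Bmp6, Gdf6, Gdf7 and Grem1, had ranges that overlapped between the days. These percentiles were not tested between time points, and how many of all promoters separate in this way was not counted.

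Several BMP target, ligand and antagonist promoters that were called at days 2 and 3 had few or no calls at day 5. Id1 was called in 0 of 6 day 5 libraries and in 5 of 6 day 3 libraries, all but WT70 (exact p = 0.0278, adjusted p = 0.794). Bmp7, a ligand gene, had the same counts, 0 of 6 and 5 of 6, with WT70 again the library without a call at day 3. Its KO peaks at day 3 lay upstream of the start site, covered 547 to 555 bp of the window and ranked at 7.08 and 11.7 among the library's peaks, against 71.3 and 69 in CM59 and CM69 and 62.3 in WT72. With a window of 0.5 kb the KO lines had no Bmp7 call at day 3. Nog, the gene for noggin, was called in 1 of 6 day 5 libraries, CM59, and in 6 of 6 libraries at each of days 3, 2 and 0 (day 5 against day 3, exact p = 0.0278, adjusted p = 0.794). Id3 was called in 0 of 6 libraries at day 5 and 4 of 6 at day 3, where WT70 and WT72 had none (exact p = 0.0556, adjusted p = 0.794).

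These 4 genes were the members with at least 4 fewer called libraries at day 5 than at day 3, of 25 tested, beside 1.6% of all promoters tested. No member had at least 4 more, beside 5.59%. By the exact test no promoter passed an adjusted p of 0.05 (0%), and 75 had an unadjusted p under 0.05, 3 of them members. CM59 at day 5 held 2847 peaks, the most of that time point, and carried the lone call there of Nodal, Tgfb2, Nog, Smad7, Id2 and Id4. Between day 3 and day 2, Fst (follistatin, an activin antagonist) was called in 0 of 6 day 3 libraries and 4 of 6 day 2 libraries, and Inhba (an activin subunit) in 1 of 6 and 5 of 6 (exact p = 0.0833 and adjusted p = 0.656 for each). They were 2 of 28 members tested with at least 4 fewer, beside 13.4% of all promoters, and 0 members had at least 4 more, beside 0.298%. No promoter passed adjustment (0%), and 110 had an unadjusted exact p under 0.05, 0 of them members. KO and MUT each changed 1 of 2 lines between days 2 and 3, while KO15, CM59, WT70 and WT72 were sampled at both. Both WT lines had Fst and Inhba called at day 2 and neither at day 3, whereas KO15 had neither gene called at either day.

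**Figure D3:**
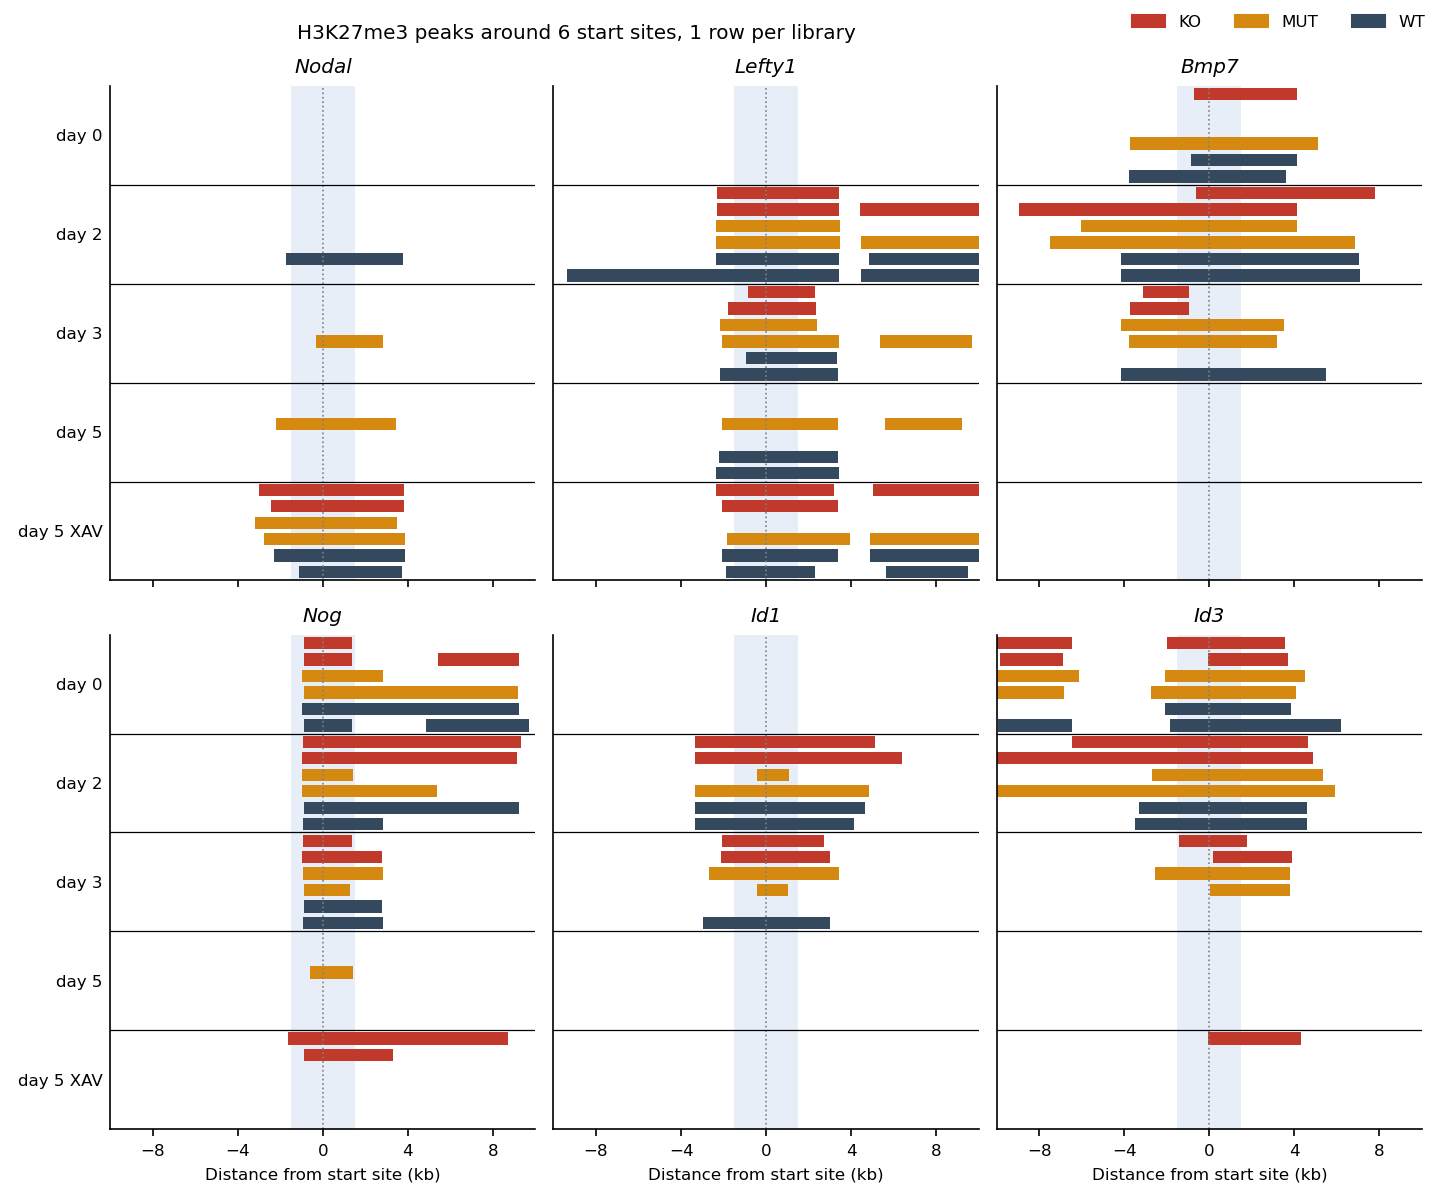
Each row is 1 library, ordered from day 0 at the top to day 5 XAV at the bottom and coloured by genotype; bars are peaks plotted by distance in kb from the start site, with positive values inside the gene, and the shaded strip is the window of 1.5 kb to each side. Nodal peaks are stacked in the 6 day 5 XAV rows, Lefty1 has 6 rows filled at day 2 and none at day 0, and Bmp7 and Id1 have no bar at day 5.

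With the same number of peaks kept in every library (the 704 with most total signal), Id1 was called in 5 of 6 day 2 and 0 of 6 day 0 libraries, Lefty1 in 5 and 0, Bmp4 in 6 and 0, and Id2 in 1 and 0. Under the same setting Id1 was called in 0 of 6 day 5 and 3 of 6 day 3 libraries, Bmp7 in 0 and 3, and Nog and Id3 in 0 at both times. Fst was then called in 0 libraries at both days 2 and 3, and Inhba in 1 of 6 day 3 and 0 of 6 day 2 libraries. Equal numbers within each time point left Fst with 0 day 3 and 1 day 2 libraries, and Inhba with 1 and 2. With the 704 highest peaks instead, Nog was called in 0 of 6 day 5 and 6 of 6 day 3 libraries.

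Under XAV the Nodal promoter was marked in every line. Nodal encodes the ligand that induces and maintains the primitive streak. It was called in 6 of 6 day 5 XAV libraries and in 1 of 6 day 5 libraries, CM59, a difference of 83.3 points (two-sided exact conditional test stratified by genotype, p = 0.0278, adjusted p = 1). With XAV its peak ranked at 76.3 and 66.7 among the library's own peaks in KO15 and KO1, at 18.3 and 69.3 in CM59 and CM69, and at 61.5 and 51.6 in WT70 and WT72. Both lines of each genotype therefore carried it, and the low rank belonged to the library with 704 peaks. All 9 Nodal peaks in the series covered the start site, and those with XAV were 4869 to 6813 bp wide. With 704 peaks in every library Nodal was called in 5 of 6 day 5 XAV and 0 of 6 day 5 libraries. Without the CM59 day 5 XAV library, and with peak numbers made equal within each time point, it was called in 5 of 5 day 5 XAV and 0 of 6 day 5 libraries.

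The Nodal window spans chr10:61416472-61419472 (mm10, plus strand), and the peaks of all libraries merged into 1 region of 7045 bp that held no other protein-coding start site. The RefSeq promoter (GRCm38.p6), from 250 bases before to 50 after the start, is shown because it lay inside every Nodal peak, with CpG dinucleotides, the sites of DNA methylation that TET1 acts on, in capitals. It spans chr10:61417722-61418021 and holds 5 CpGs.
Nodal: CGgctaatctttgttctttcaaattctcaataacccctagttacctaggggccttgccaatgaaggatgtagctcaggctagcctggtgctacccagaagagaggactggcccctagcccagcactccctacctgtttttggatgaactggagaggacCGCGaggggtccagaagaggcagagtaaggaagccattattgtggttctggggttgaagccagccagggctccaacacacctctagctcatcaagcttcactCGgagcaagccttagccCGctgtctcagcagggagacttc

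Tdgf1, which encodes the Nodal co-receptor Cripto, was called in 3 of 6 day 5 XAV libraries (KO15, KO1 and CM69) and in 0 of 6 day 5 libraries (exact p = 0.167, adjusted p = 1). It was called nowhere else, and its peaks ranked at 24.5 to 50.3 among the library's own. With peak numbers made equal over all libraries, by total signal or by height, or within each time point, Tdgf1 was called in no library. Without the CM59 day 5 XAV library, and with numbers equal within each time point, its 3 calls remained. Gdf10 was called in 1 of 6 day 5 XAV libraries, KO1, and in 4 of 6 day 5 libraries, those of KO and MUT (exact p = 0.167, adjusted p = 1). Thus 2 of 22 members tested had at least 3 more called libraries with XAV, beside 3.45% of all promoters tested, and 1 had at least 3 fewer, beside 5.96%. No promoter passed adjustment by the exact test (0%), and 9 had an unadjusted p under 0.05, 1 of them a member. The member share was 6.48 points higher with XAV, less than the spread between lines of 13.8 points. It was -3.7 points without line CM69 and 16.7 points without line CM59.

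Lefty1 was called in 0, 6, 6, 3 and 5 of 6 libraries at days 0, 2, 3, 5 and 5 XAV, and Nodal in 0, 1, 1, 1 and 6. At day 5 the Lefty1 calls were in neither KO line, in CM59 of MUT and in both WT lines. At day 5 XAV they were in both KO lines, CM69 and both WT lines. With peak numbers made equal over all libraries, Lefty1 was called in 1 day 5 library and 0 day 5 XAV libraries. With numbers equal within each time point it was called in 2 and 0, and in 2 and 5 when the CM59 day 5 XAV library was also left out. Lefty2, a near-identical neighbour whose start site lies 41.9 kb away, was called in KO25 and WT72 at day 2 only, at percentiles of 25 and 12.8 of the library's own peaks. Reads that match both genes could have been placed at either. Cer1, the gene of a secreted antagonist of Nodal and BMP, and Gdf3, a Nodal-like ligand gene, were called in none of 30 libraries.

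Between genotypes the member share differed by less than the spread between lines. The KO share of members exceeded the WT share by 4.72 points, with a spread between lines of 7.88 points, and the MUT share exceeded the WT share by 6.67 points, with a spread of 12.5 points. The KO share was 1.94 points below the MUT share (difference -1.94, spread 12.3). Over the 3179 promoters the KO share exceeded the WT share by 10.7 points and the MUT share exceeded it by 4.61 points. The 10 libraries of a genotype came from 3 lines in KO, 3 in MUT and 2 in WT, sampled repeatedly, so they are not independent as the tests between genotypes assume. The KO minus WT difference was -13.9 points at day 2, 22.2 points at day 3 and 25 points at day 5 XAV, beside -7.16, 18.1 and 18.4 points over the 3179 promoters. At day 0 it was -12.5 points, beside -3.46 over the 3179 promoters. At day 5 it was 2.78 points, beside 27.7, so there the members did not follow the gain over all promoters, which was not tested. Without line KO25 the day 2 difference was -19.4 points. At day 3 the members called were 19 and 20 in KO15 and KO1, 21 and 20 in CM59 and CM69, and 9 and 14 in WT70 and WT72, where the numbers of peaks were 1849 and 1877, 1631 and 1452, and 969 and 1135. With equal peak numbers within day 3, the KO share was 25%, the MUT share 38.9% and the WT share 30.6%. With equal peak numbers at day 5 XAV the KO minus WT difference was 4.17 points, and 20.8 points when the CM59 library was left out and numbers made equal over the rest.

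Bmp8a, a BMP ligand gene known for germ cell formation, showed the widest gap between KO and WT. It was called in 6 of 10 KO, 2 of 10 MUT and 1 of 10 WT libraries. The KO calls were both lines at days 3, 5 and 5 XAV, the MUT calls CM59 at day 5 and CM69 at day 5 XAV, and the WT call WT72 at day 5 XAV. KO exceeded WT by 50 points (two-sided exact conditional test stratified by time point, p = 0.0278, adjusted p = 0.844) and MUT by 40 points (p = 0.0833, adjusted p = 1). The 9 peaks were weak, with a median percentile of 30.4 among the library's own peaks, and with 704 peaks in every library the promoter was called nowhere. Bmp8b, a paralogue 238 kb away, was called in all 9 of those libraries and in 6 more, that is in 6 of 10 KO, 5 of 10 MUT and 4 of 10 WT libraries. Their sequences are alike, and reads matching both could have been split between them.

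Gdf10 was called in 9 of 10 KO, 8 of 10 MUT and 5 of 10 WT libraries. The WT lines lacked it at days 5 and 5 XAV. With equal peak numbers within each time point it was called in 5 libraries of each genotype, and with 704 peaks in every library in 2 of each. The exact p was 0.0833 for KO against WT (40 points, adjusted p = 0.98) and 0.167 for MUT against WT (30 points, adjusted p = 1). Chrd, the gene for the BMP antagonist chordin, was called in 5 of 10 KO, 6 of 10 MUT and 9 of 10 WT libraries, and Lefty1, the next member with fewer calls in KO and MUT, in 6, 6 and 8 of 10. For Chrd, KO was 40 points below WT (difference -40, exact p = 0.0833, adjusted p = 0.98) and MUT 30 points below (difference -30, exact p = 0.375, adjusted p = 1). Its window overlaps that of Thpo, whose start site lies 1.38 kb away and which was called in the same 20 libraries. Id3 was called in 7 of 10 KO and 4 of 10 WT libraries (30 points, exact p = 0.167, adjusted p = 1), the difference lying at days 3 and 5 XAV.

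Inhba was called in 5 of 10 KO, 8 of 10 MUT and 3 of 10 WT libraries. MUT exceeded WT by 50 points (exact p = 0.0417, adjusted p = 1), and CM59 peaks at days 0, 3 and 5 stood at the 88, 74 and 86.4 percentile of the library's own peaks. At day 5 XAV a MUT peak stood at 82.2, where WT had no call and no KO peak of any time point passed 59.6. With 704 peaks in every library Inhba was called in 0 of 10 KO, 6 of 10 MUT and 0 of 10 WT libraries, and with the 704 highest peaks in 0, 2 and 0. The 6 MUT libraries included both lines at day 0 and both at day 5 XAV. With equal numbers within each time point and without the CM59 day 5 XAV library the counts were 3, 5 and 1. Tgfb1, the gene of a TGF-beta ligand, was called in 10 of 10 MUT and 7 of 10 WT libraries, and Id2 in 5 of 10 MUT and 2 of 10 WT libraries (30 points, exact p = 0.167 and adjusted p = 1 for each). Between KO and MUT, Bmp3 was called in 10 of 10 KO and 7 of 10 MUT libraries, and Smad6, which encodes an inhibitory SMAD of the BMP branch, in 2 of 10 KO and 5 of 10 MUT libraries (exact p = 0.25 and adjusted p = 1 for each). Equal numbers within each time point gave Bmp3 in 5 KO and 5 MUT libraries, and Smad6 in 0 and 3. Neither gene was called in any library when the 704 peaks of most total signal were kept in each.

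Set against all promoters, 3 of 29 members had at least 3 more called libraries in KO than in WT, beside 22.8%, and 1 had at least 3 fewer, beside 0.735%. For MUT against WT the counts were 4 of 27, beside 7.98%, and 1, beside 2.14%. For KO against MUT they were 2 of 28, beside 10.6%, and 2, beside 0.881%. No promoter passed an adjusted p of 0.05 by the exact test in these 3 comparisons (0% in each), and 117, 13 and 16 had an unadjusted p under 0.05, of which 1, 1 and 0 were members. KO and MUT were compared with the same WT libraries. Peaks numbered 2392.5, 2597 and 2467 on average in KO, MUT and WT at day 0 and 2430, 2019 and 1327.5 at day 5, and the part of peak number in these counts was not tested.

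**Figure D4:**
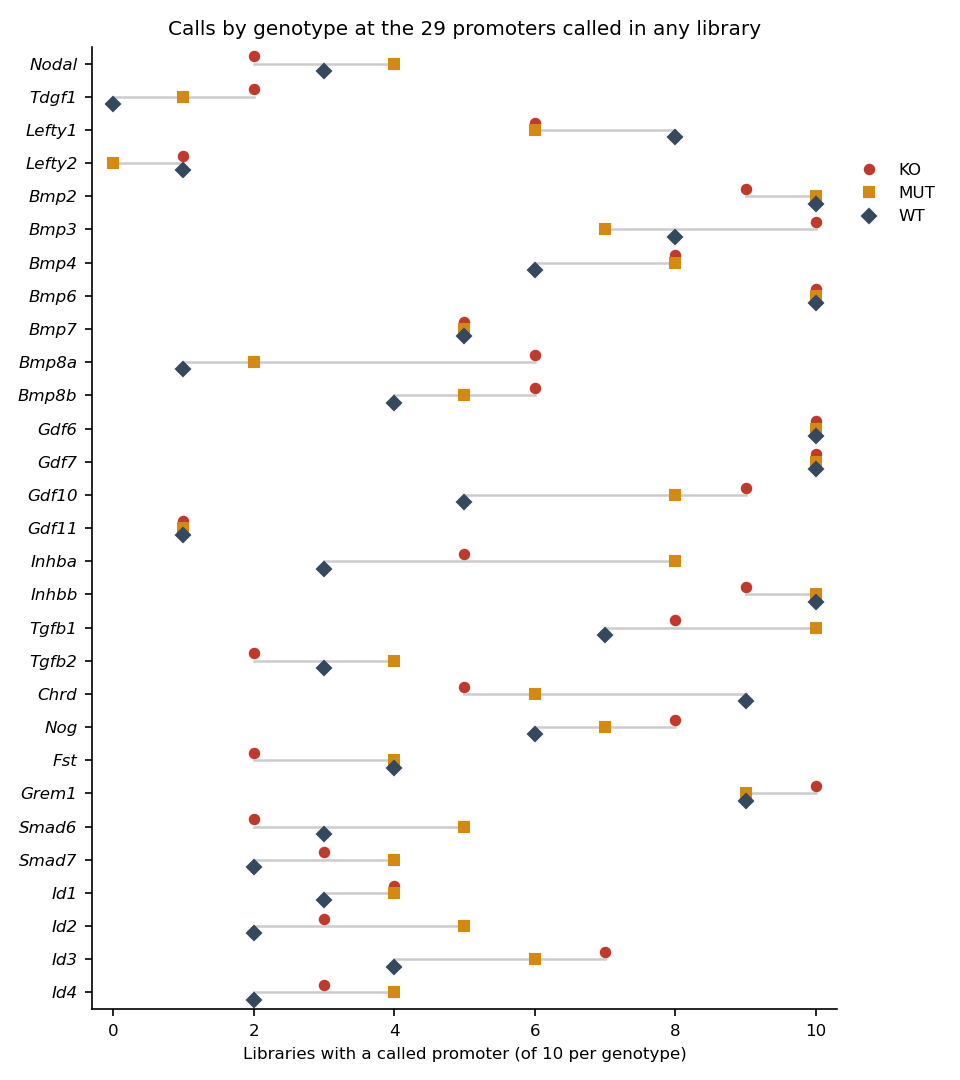
Number of the 10 libraries of each genotype in which a promoter was called, for the 29 members called in any library (circles KO, squares MUT, diamonds WT, with a grey line over the range). Bmp8a is at 6 in KO and 1 in WT, Chrd at 5 in KO and 9 in WT, and Bmp6, Gdf6 and Gdf7 sit at 10 in all 3 genotypes.

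Promoters called in 29 or 30 libraries could be compared by strength. Gdf6, a BMP-type ligand gene of dorsal ectoderm and joints, stood at a median percentile of 60.5 among the 440 common regions, Inhbb at 51.6, Gdf7 at 47.7, Bmp2 at 13.4 and Bmp6 at 13.2. Gdf6 averaged 62.5 ± 13.2 in KO, 61.6 ± 9.51 in MUT and 61.5 ± 13 in WT (SD, n = 10 each), and the KO minus WT difference was 1.07 (permutation test within time points, adjusted p = 0.957). Gdf7, which specifies dorsal interneurons, averaged 49.1 ± 11.6 in KO, 40.5 ± 12.8 in MUT and 48.6 ± 9.22 in WT. Over these repeatedly sampled lines MUT was below WT (difference -8.05, exact permutation p = 0.0072, adjusted p = 0.0957). Bmp6 averaged 12.5 ± 3.51 in KO and 13.7 ± 5.69 in WT. No member passed adjustment, whereas 35 of 545 promoters did for KO against WT (6.42%) and 6 of 465 for MUT against WT (1.29%). By peak height both counts were 0, and leaving out a line they ranged from 0 to 30 for KO and from 0 to 15 for MUT.

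With XAV, Gdf6 averaged 50.8 ± 4.62 against 63.6 ± 10.1 without it, and Gdf7 45.6 ± 4.17 against 58.2 ± 7.67 (SD, n = 6 each). In every genotype both lines were lower with XAV. The differences were -12.8 and -12.6, each at the smallest p of the design (exact permutation p = 0.00926, adjusted p = 0.0614). None of 564 promoters passed adjustment in this permutation test (0%), and 193 had an unadjusted p under 0.05. Inhbb averaged 52.1 ± 4.51 with XAV and 53.5 ± 3.63 without it (exact permutation p = 0.519, adjusted p = 0.675), and Bmp6 12.7 ± 2.24 and 13.2 ± 3.69 (exact permutation p = 0.778, adjusted p = 0.87).

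**Figure D5:**
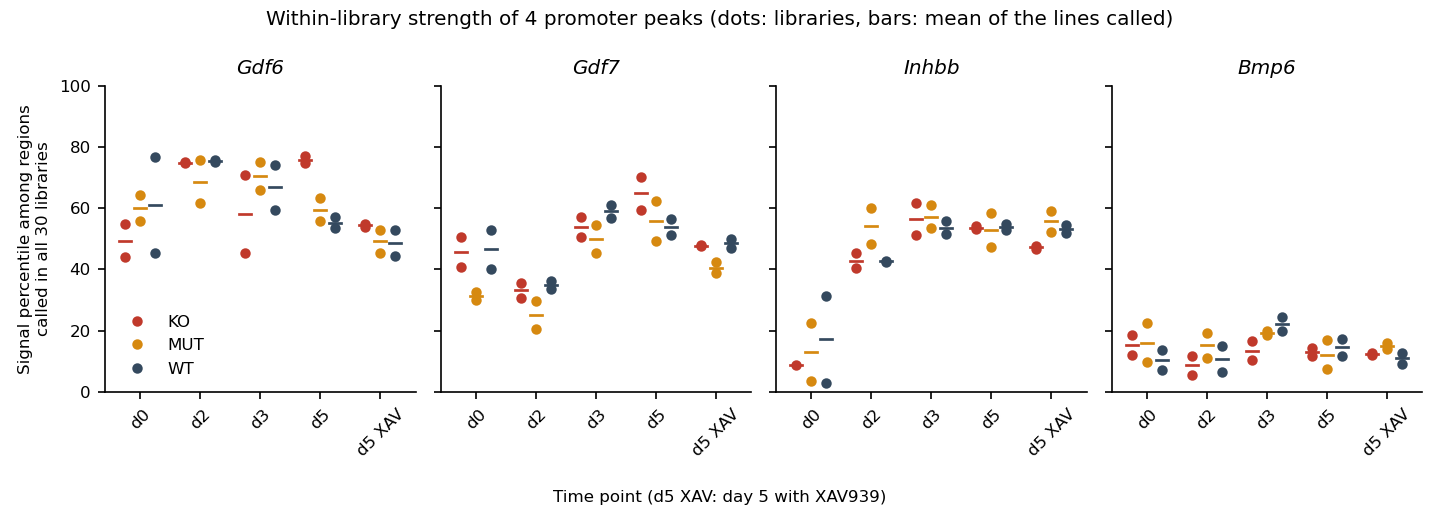
Percentile of each promoter's summed peak signal among the 440 regions called in all 30 libraries, by time point and genotype, with dots for libraries and bars for the mean of the lines called. Gdf6 and Gdf7 are lower at day 5 XAV (44.3 to 55 and 38.9 to 50) than at day 5 (53.4 to 77 and 49.3 to 70.2), and Inhbb is low at day 0.

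Of 53 further genes of the pathways, 37 were called in no library, 2 in 1 library and 14 in at least 2. Among all 21866 protein-coding genes, 83.6% were called in no library and 3179 genes in at least 2. The counts by group were not tested against these. The receptors and co-receptors counted 7 of 17 in at least 2 libraries, the SMADs and nuclear cofactors 1 of 13 (Smad9), the other ligands 0 of 10 and the other antagonists 6 of 13. Chrdl2 and Fstl4, genes for a chordin-like protein and a follistatin-like protein, were called in 29 libraries each, all but CM59 at day 5 XAV. Rgma, which encodes a BMP co-receptor, was called in 6, 6, 5, 1 and 0 of 6 libraries at days 0, 2, 3, 5 and 5 XAV (day 5 against day 3, exact p = 0.0833, adjusted p = 0.794). Tgfbr3 was called in 0 of 6 day 3 and 4 of 6 day 2 libraries (exact p = 0.0833, adjusted p = 0.656). Rgmb was called in 1 of 6 day 2 and 5 of 6 day 0 libraries (exact p = 0.12, adjusted p = 0.883). The shares of all promoters tested with at least 4 fewer were 1.6%, 13.4% and 8.56% in these comparisons. None of the 53 differed by 3 or more libraries between KO and WT, or with XAV.

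RefSeq promoters were at hand for 22 of the 36 members. Those of the 3 never-called members among them, Cer1, Bmp5 and Bmp10, held 3 to 6 CpGs in 300 bases, the 17 called in some libraries 5 to 42 (median 23), and Bmp6 and Gdf7 27 and 26. Over 16515 genes the median was 12 CpGs for promoters called in no library, 19 for those called in 1 to 29 and 20 for those called in all 30. Nodal, with 5 CpGs, Tdgf1 and Inhba, with 7 each, were called members within the range of, or next to, the never-called ones. The sequence GGCGCC, a GC-rich SMAD motif read on both strands, stood in 5 of the 22 promoters (Gdf10, Chrd, Grem1, Id2 and Id4) and in 15.8% of all. The palindrome GTCTAGAC, a SMAD-binding element, stood in Smad6 only and in 0.236% of all, and the TCF/LEF motif CTTTGAT (both strands) in none and in 3.18% of all. The promoters below are set side by side to compare CpG density, again with CpGs in capitals, for genes called at day 2 in all lines (Bmp4, Id2, Id3), in all 30 libraries (Gdf7) and in none (Cer1). They span chr14:46390620-46390919 (minus strand), chr12:25096043-25096342 (minus), chr4:136143572-136143871 (plus), chr12:8301905-8302204 (minus) and chr4:82885102-82885401 (minus).
Bmp4: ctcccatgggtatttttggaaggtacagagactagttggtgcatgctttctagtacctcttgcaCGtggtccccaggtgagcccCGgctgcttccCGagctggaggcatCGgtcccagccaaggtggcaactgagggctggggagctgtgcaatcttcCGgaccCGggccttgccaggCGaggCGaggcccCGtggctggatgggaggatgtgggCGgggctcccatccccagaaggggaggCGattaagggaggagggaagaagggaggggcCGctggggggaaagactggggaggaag
Id2: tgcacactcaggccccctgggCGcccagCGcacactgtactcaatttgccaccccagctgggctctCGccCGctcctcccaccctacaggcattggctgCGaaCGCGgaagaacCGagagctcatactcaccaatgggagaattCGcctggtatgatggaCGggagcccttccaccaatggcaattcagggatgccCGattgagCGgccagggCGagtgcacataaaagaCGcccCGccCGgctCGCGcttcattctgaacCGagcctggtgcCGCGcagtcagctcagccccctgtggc
Id3: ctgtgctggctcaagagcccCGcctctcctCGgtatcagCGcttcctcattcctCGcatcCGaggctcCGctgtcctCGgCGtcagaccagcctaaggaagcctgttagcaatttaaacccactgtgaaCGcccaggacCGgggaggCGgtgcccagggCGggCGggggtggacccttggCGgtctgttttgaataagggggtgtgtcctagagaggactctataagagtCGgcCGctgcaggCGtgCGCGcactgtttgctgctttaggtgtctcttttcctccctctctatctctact
Gdf7: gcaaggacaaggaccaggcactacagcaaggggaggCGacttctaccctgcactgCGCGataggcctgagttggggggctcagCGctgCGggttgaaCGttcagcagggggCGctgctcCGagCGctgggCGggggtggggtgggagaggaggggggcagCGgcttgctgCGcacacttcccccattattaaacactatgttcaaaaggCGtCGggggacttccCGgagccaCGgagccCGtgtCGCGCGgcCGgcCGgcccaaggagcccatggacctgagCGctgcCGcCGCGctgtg
Cer1: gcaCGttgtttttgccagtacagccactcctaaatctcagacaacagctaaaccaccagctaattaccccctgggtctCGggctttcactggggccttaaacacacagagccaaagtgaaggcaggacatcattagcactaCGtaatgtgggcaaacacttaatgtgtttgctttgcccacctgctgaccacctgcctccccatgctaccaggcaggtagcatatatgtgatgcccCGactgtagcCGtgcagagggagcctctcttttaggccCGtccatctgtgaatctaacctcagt
They hold 12 CpGs in Bmp4, 21 in Id2, 19 in Id3, 26 in Gdf7 and 6 in Cer1.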

How the data were processed

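Peaks were deposited per library, and the authors had made them by trimming with Trim Galore, aligning with Bowtie to the mouse genome GRCm38.p6 (mm10), marking duplicates with Picard and calling enriched regions with SEACR in stringent mode against the matched IgG library (version not given in the sources used here). The signal of each deposited peak, its total over the peak and its highest value, was not scaled to library size by the authors, so signals were compared only as percentiles within a library. Read depth per library was not in the deposited peaks, and the number of peaks stood in for it. The authors' lists of regions from their own comparisons were not used.

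Promoters came from GENCODE M21 start sites of the same build. The members and gene lists were chosen with earlier results of these data known. Calls were compared with a two-sided exact conditional test, stratified by time point for genotypes (20 libraries) and by genotype for time points and XAV (12 libraries), over every promoter called in at least 2 libraries of the comparison, with Benjamini-Hochberg adjustment. The member share is a mean difference within strata without a test, and its spread is the pooled SD between the 2 lines of a group. Signal percentiles were taken among 440 regions called in all 30 libraries and tested by exact permutation within strata over promoters called in every library of the comparison. Members were described library by library where calls differed by at least 3 of 10 libraries between genotypes, 3 of 6 with XAV or 4 of 6 between consecutive times, together with the 6 Nodal pathway genes. Both tests were tested on simulated data. Libraries of a group were separate cell lines, and the lines' numbers pair them between time points, since they name the same line; the correlations of same-line deviations from the group mean over promoters ran from -0.239 to 0.173. The 2 lines of a group differed in the calls of at least 213 promoters, so none was taken as a duplicate. Alternatives were other windows, equal peak numbers, leaving out each line, later days only and the line as a block. Python 3.11.15, NumPy 2.4.6, pandas 2.3.3, SciPy 1.17.1 and Matplotlib 3.10.9 were used.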

Additional observations from a re-analysis of the deposited data

Results flagged for a closer look

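The share of members called differed between KO and WT in opposite directions at different time points, with every line on one side, and the difference itself was not tested. It was 22.2 points higher in KO at day 3 and 25 points higher at day 5 XAV, while at day 2 it was 13.9 points lower (difference -13.9). The MUT minus WT difference was 25 points at day 3 and -9.72 points at day 2. The WT libraries held 969 and 1135 peaks at day 3, the fewest of that time point, and 2185 and 1856 at day 2. With equal peak numbers within each time point the KO minus WT difference was -5.56 points at day 3, 5.56 points at day 2 and 4.17 points at day 5 XAV (20.8 without the CM59 library), and the MUT minus WT difference was 8.33 points at day 3 and 4.17 points at day 2. Groups held 2 lines, so no group was large enough to be searched for a single outlying library.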

How the results depend on the processing

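Of the alternatives, windows of 0.5 or 3 kb and a minimum of 500 bp covered moved no member share past the spread between lines. The KO minus WT member share of 4.72 points was -2.5 with peak numbers made equal over all libraries, -2.78 with numbers made equal within each time point, -0.556 with equal numbers over all libraries taken by height and 16.7 with days 3, 5 and 5 XAV only. Leaving out a line it lay between 0 and 9.44. The KO minus MUT share was 2.31 with those days only and lay between -5 and 1.39 without a line. The XAV share was -5.56 with equal peak numbers within each time point and lay between -3.7 and 16.7 without a line; leaving out the CM59 day 5 XAV library, a choice made after seeing the data, it was 11.6, and 15.3 with equal numbers as well. The day 3 minus day 2 share was -1.85 by height. Promoters past an adjusted p of 0.05 in signal percentile numbered 0 by peak height for both KO and MUT against WT, and lay between 0 and 30 (KO) and 0 and 15 (MUT) without a line. The cause was not tested.

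Single genes that changed sign included the following. With peak numbers equal over all libraries, Id3 was -10 points for KO against WT and Tgfb1 -20 points for MUT against WT, and by height Gdf10 was -10 points for KO and Tgfb1 -10 points for MUT. Numbers equal over all libraries also gave Id2 calls in 0 MUT and 1 WT libraries, and Inhba calls in 1 day 3 and 0 day 2 libraries. By height the Inhbb percentile was 34.8 higher with XAV. Without a line, KO minus WT percentiles lay between -3.36 and 0.114 for Bmp6, -4.16 and 6.3 for Gdf6, and -2.25 and 3.25 for Gdf7, the MUT minus WT percentile of Gdf6 between -5.05 and 5.41, and the XAV differences of Bmp6 and Inhbb between -1.74 and 0.682 and between -4.39 and 1.59. None of these values had passed adjustment. With the line as a block in the paired comparisons, the member share differences were 6.48 points for XAV, 17.1 for day 2 against day 0 and -12 for day 5 against day 3, 0 promoters passed adjustment, Nodal had an unadjusted exact p of 0.0625, and no call changed. For day 3 against day 2, a block over the 4 lines sampled at both days, added after seeing the data, gave -13.9 points and 0 promoters past adjustment, with Fst and Inhba at -50 points each (unadjusted exact p = 0.5).

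Libraries differed in their number of peaks, and with the 704 peaks of most total signal kept in each, Bmp8a and Chrd were called nowhere. For Chrd, equal numbers within each time point gave 0 KO, 0 MUT and 3 WT libraries, and the 704 highest peaks 1, 1 and 4. Without the CM59 day 5 XAV library, equal numbers within each time point gave 2, 1 and 5. With 2 lines per group a comparison within 1 time point cannot give an exact p below 0.333, and with 12 libraries none below 0.00926.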

Other observations

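At day 0, Bmp4, Bmp8b, Tgfb2, Smad6 and Id4 were called in the same 2 of 6 libraries, CM40 and WT72, and in no other. These libraries held 3466 and 3450 peaks, against 1484 to 2874 in the other 4, and each had 20 members called where the others had 10 to 14. Of the 3179 promoters called in at least 2 libraries, CM40 and WT72 had 81.3 and 79.5% called, against 39.1 to 63.6% in the other 4. The peaks of these genes ranked at 7.45 to 52.3 among the library's own peaks by total signal. Fst and Inhba, which were also called in these 2 libraries, were called in others as well.

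The line KO15 carried more member calls with XAV (23) than any other day 5 XAV library, among them Smad7, Tgfb2, Gdf11 and Id4, and it held the most peaks of that time point (2461). It also had the largest share of the 3179 promoters called at that time point, 66.4%.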
